A study of Homo sapiens with 12 samples.

Results

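The genes described here encode 10 components of insulin and insulin-like growth factor (IGF) signaling: the docking proteins IRS1 and IRS2, the receptors IGF1R, INSR and IGF2R, and the secreted IGF binding proteins IGFBP1, IGFBP3, IGFBP4, IGFBP6 and IGFBP7. They were chosen by name and were all found among the 19973 genes of the deposited table. The RNA came from H460 and A549, both established lines of non-small-cell lung cancer (NSCLC). They are labelled as wild type, but the paper states that both carry homozygous inactive mutations of KEAP1. A549 derives from an adenocarcinoma and H460 from a large cell carcinoma. In each line, 3 control libraries from non-treated cells and 3 libraries from cells given ISP-I (isovalerylspiramycin I, a macrolide isolated from carrimycin) at 10 µM for 48 h were compared. That makes 12 libraries in 4 groups, and the comparison asks which transcripts respond to the compound in NSCLC cells. The libraries of a group are numbered by their order in the table. The labels call them replicates and do not say that they came from separate cultures, so the p values measure the spread between these libraries only. Whether the controls received the solvent of the compound is not given in the sources used here.

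Insulin and the IGFs bind INSR and IGF1R, a pair of related receptor tyrosine kinases at the cell surface. The activated receptors phosphorylate IRS1 and IRS2, which recruit PI3K and so start signaling through AKT and mTOR toward growth, survival and glucose use. IGF2R, also known as the cation-independent mannose 6-phosphate receptor, carries IGF2 and lysosomal enzymes to the lysosome and has no kinase of its own. The binding proteins hold IGFs in the fluid around cells and limit or prolong their access to IGF1R. When AKT is inactive, FOXO transcription factors enter the nucleus, where IRS2, INSR and IGFBP1 are textbook targets.

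On hg38, IRS1 lies at chr2:226731317-226799759 (minus strand), IRS2 at chr13:109752695-109786583 (minus), IGF1R at chr15:98648539-98964530 (plus), INSR at chr19:7112255-7294414 (minus) and IGF2R at chr6:159969082-160113507 (plus). The binding protein genes are IGFBP4 at chr17:40443450-40457725 (plus), IGFBP6 at chr12:53097436-53102345 (plus) and IGFBP7 at chr4:57030773-57110385 (minus). IGFBP1 at chr7:45888360-45893660 (plus) and IGFBP3 at chr7:45912245-45921874 (minus) are neighbours, with 18584 bases between them. All are protein-coding, and each value refers to the exons of the whole gene, so transcript isoforms such as those of INSR were not separated.

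Short promoter stretches are shown because IRS2 and other genes of this pathway are known FOXO targets. RefSeq promoters on GRCh38.p14, from 250 bases before to 50 bases after the listed start, were held for 8 of the 10 genes, all but IGFBP1 and IGFBP7. On both strands, the FOXO motif GTAAACA was searched, along with the insulin response core CAAAACA, the E-box CACGTG and the GC box GGGCGG. Capitals mark the motif letters, and each stretch is printed 5′ to 3′ along its gene.
IRS2, chr13:109786605-109786634, minus strand, insulin response core read on the opposite strand: gagtcacatgtTGTTTTGctcttcttagtt
IGFBP6, chr12:53097470-53097499, plus strand, FOXO motif: caatttgggaaGTAAACAgaaactggaaag
IGF2R, chr6:159968996-159969025, plus strand, E-box: gaacaagggagtCACGTGagcggggggcgg
The insulin response core was present in 4.92% of all 35116 promoters and, among the 8, in that of IRS2, at position -40 from the start. The FOXO motif was in 3.42% of all promoters and here in that of IGFBP6, at -186 from its RefSeq start. That start differs from the gene start given above, and the IGFBP6 stretch lies inside the gene range chr12:53097436-53102345. E-boxes occurred in 7.26% of promoters; IGF2R held 3 (at -132, -74 and -28) and IRS1 held 1. GC boxes were in 45.0% of promoters and in 8 of these 8. A match of letters is a description and not evidence of binding.

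Expression is given as FPKM (fragments per gene after correction for gene length and library depth), a level per length that can be compared between genes. Depth was 14225849 to 17874422 reads per library, from whole reads recovered from FPKM and gene length. H460 ISP-I library 3 stood apart: it differed from the other libraries of its group with a chi-square of 58.1 and 98.7 per degree of freedom, against 22.9 between those. A549 control library 3 did so as well (28.0 and 32.5, against 3.38). Of 5 epithelial markers, 5 were at or above a mean of 1 FPKM in A549 controls, 4 in A549 with ISP-I and 3 (keratins) in either H460 group, and CDH1 had 0 reads in each H460 control library, which allows up to 3 reads. The summed level of 4 endothelial markers was at most 0.389 FPKM, that of 5 leukocyte markers 0.0727 to 6.48 FPKM and that of 5 fibroblast markers 0.874 to 11.1 FPKM. Leukocyte sums were lower with ISP-I than in controls in H460 (0.875 to 1.69 against 5.18 to 6.48 FPKM) and in A549 (0.0727 to 0.363 against 0.748 to 1.32 FPKM). These sums rest on few genes. In either H460 group 1 of the 5 leukocyte markers reached a mean of 1 FPKM, and 3 had 0 reads in each H460 control library. Fibroblast sums were lower with ISP-I in H460 (4.93 to 5.80 against 9.63 to 11.1 FPKM) and between 0.874 and 1.32 FPKM in A549. The epithelial sum was lower with ISP-I in A549 (628 to 659 against 924 to 1252 FPKM) and overlapped in H460. Their part in the results was not tested.

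Changes were tested on log2(FPKM + 1) with limma over all genes whose mean reached 0.1 FPKM. A gene passed at a Benjamini-Hochberg adjusted p under 0.05 and was called past 2-fold when it also changed by more than 1 on the log2 scale. With the pseudocount of 1, the log2 change understates the change of genes near or under 1 FPKM, such as INSR and IGFBP7, so ratios of mean FPKM are given beside it. The median change of all genes tested was -0.15 in H460 and 0.02 in A549. Dividing each library by its median ratio to the geometric mean library (median-of-ratios scaling) raised the H460 median by 0.16. It moved the higher share of genes called past 2-fold from 40.8% to 56.5% in H460 and left it at 50.6% against 54.5% in A549. In bulk RNA, fewer cells with a transcript and less of it per cell cannot be told apart.

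In H460, 9 of the 10 genes had enough signal to be tested, and 7 passed, 2 higher (IRS1 and IGFBP3) and 5 lower (IGFBP4, INSR, IGF2R, IGFBP6 and IGFBP7). Over all genes, 69.2% passed in H460, 27.6% higher and 41.5% lower, so the share of these genes that passed was near the background. In this line, 2 were called past 2-fold, IRS1 and IGFBP4, against 25.7% of all genes. In A549, 6 of 10 passed, with IRS2 higher and IGFBP4, IGFBP1, IGFBP3, IRS1 and INSR lower, against 57.5% of all genes (30.5% higher, 27.0% lower). The genes called past 2-fold in A549 were IGFBP1 and IGFBP4, both lower, against 7.71% of all genes (3.51% lower). The ISP-I and control libraries did not overlap for 6 of 9 genes in H460 and 7 of 10 in A549, where 72.7% and 65.5% of all genes did not. The median change was -0.27 in H460 and -0.31 in A549.

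**Figure D1:**
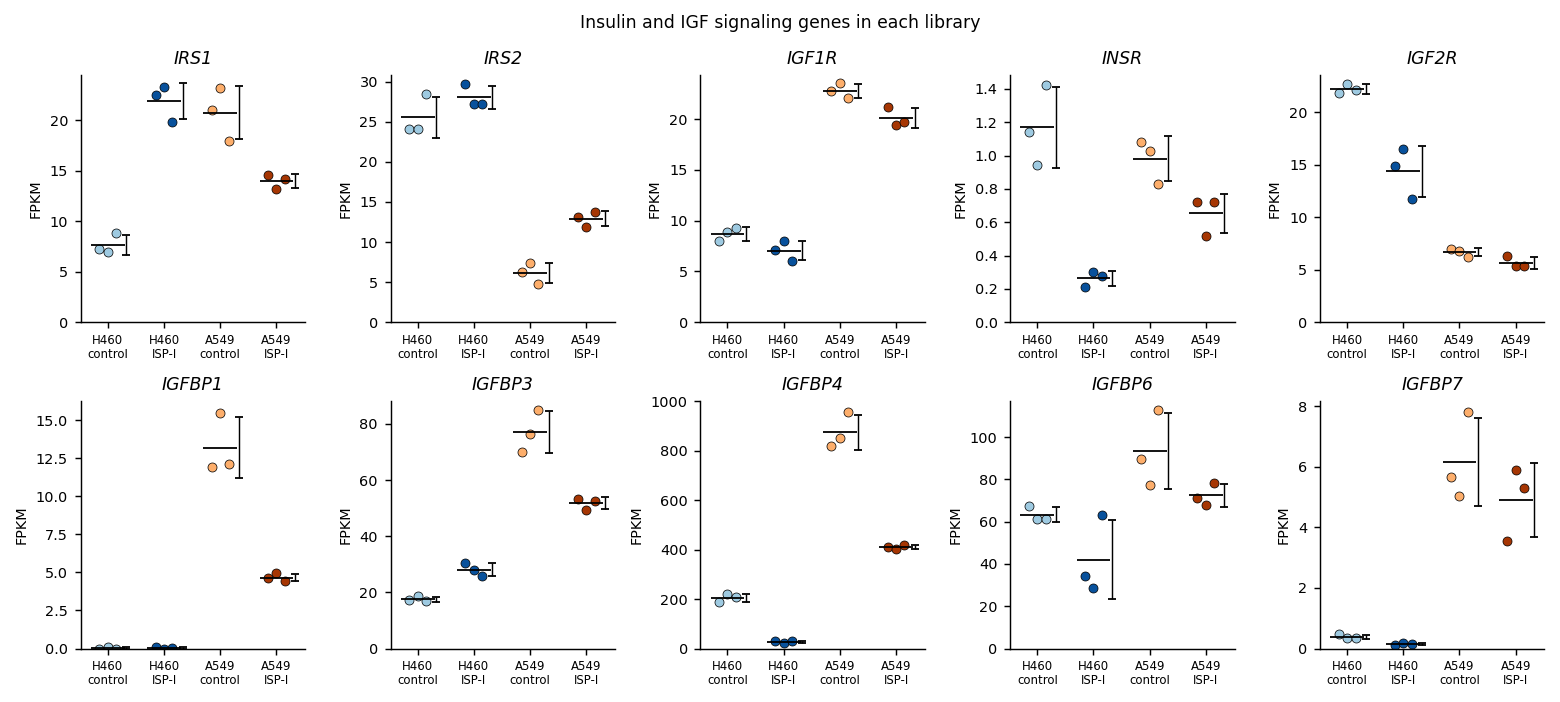
FPKM of the 10 genes in each of the 12 libraries, 1 panel per gene with a linear axis of its own from 0, with points for libraries, horizontal lines for group means and brackets for the SD (n = 3). IGFBP4 lay at 186 to 219 FPKM in H460 controls and 23.6 to 29.6 FPKM with ISP-I, while IRS1 rose in H460 and fell in A549.

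IRS1, the main docking protein below the IGF1 receptor in many cell types, moved in opposite directions in the lines. In H460 its level was 7.26, 6.93 and 8.80 FPKM in the controls and 22.4, 23.3 and 19.9 FPKM with ISP-I. Every ISP-I library was above every control, and the mean rose 2.85-fold, from 7.66 ± 0.997 to 21.9 ± 1.80 FPKM (SD, n = 3 each; limma log2 change 1.40, SE 0.13, adjusted p = 2e-05). In A549 it was 21.0, 23.2 and 18.0 FPKM in the controls and 14.6, 13.2 and 14.2 FPKM with ISP-I. Here the ISP-I libraries all lay below the controls, and the fall was 1.48-fold (log2 change -0.53, SE 0.10, limma adjusted p = 0.00194). The responses differed by 1.93 on the log2 scale (H460 minus A549, SE 0.16, limma interaction adjusted p = 1.23e-06). H460 cells with ISP-I reached the level of untreated A549 cells, from which they did not differ beyond the spread (limma adjusted p = 0.538).

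IRS2, the docking protein that FOXO factors induce in liver, rose in A549 and did not pass in H460. Its A549 levels were 6.22, 7.32 and 4.82 FPKM in the controls and 13.1, 11.8 and 13.7 FPKM with ISP-I. No ISP-I library overlapped the controls, and the mean rose 2.11-fold, from 6.12 ± 1.25 to 12.9 ± 0.970 FPKM (log2 change 0.98, SE 0.13, limma adjusted p = 0.000345). Under the pseudocount of 1 this change stopped just short of the 2-fold call. In H460 the controls had 24.1, 24.0 and 28.5 FPKM and the ISP-I libraries 29.6, 27.2 and 27.2 FPKM, with overlapping groups. The H460 change did not pass (log2 change 0.13, 95% interval -0.14 to 0.40, limma adjusted p = 0.337). After median-of-ratios scaling it was 0.41 with an adjusted p of 0.0153 (limma). The responses of IRS2 differed between the lines by -0.85 (SE 0.17, limma interaction adjusted p = 0.00145).

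The balance of the docking proteins therefore shifted in both lines. IRS2 stood at 3.34 ± 0.117 times the IRS1 level in H460 controls and at 1.29 ± 0.107 times with ISP-I (ratio of FPKM within a library, SD, n = 3). In A549 this ratio was 0.293 ± 0.0240 in controls and 0.922 ± 0.0407 with ISP-I. The ISP-I libraries of both lines lay between the controls of A549 and those of H460, and no group overlapped another.

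**Figure D2:**
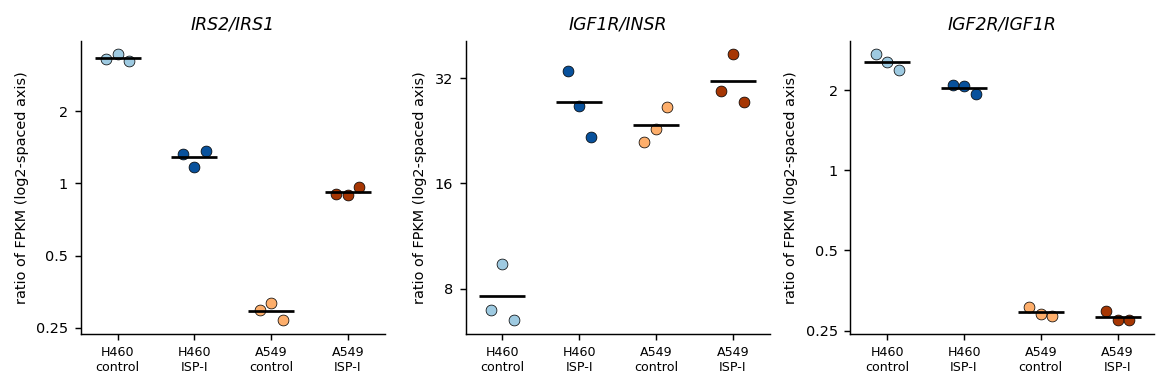
Ratios of FPKM within each library, IRS2 over IRS1, IGF1R over INSR and IGF2R over IGF1R, on log2-spaced axes with points for libraries and horizontal lines for group means. The IRS2 over IRS1 ratio fell from 3.34 to 1.29 in H460 and rose from 0.293 to 0.922 in A549.

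IGF1R, the receptor for IGF1 and IGF2, changed little. In H460 its controls had 7.96, 8.86 and 9.27 FPKM and the ISP-I libraries 7.09, 7.97 and 6.06 FPKM, a slight overlap (log2 change -0.27, 95% interval -0.57 to 0.02, limma adjusted p = 0.0837). In A549 the controls had 22.7, 23.5 and 22.1 FPKM and the ISP-I libraries 21.2, 19.4 and 19.7 FPKM. Those groups did not overlap, and the change of -0.17 (95% interval -0.33 to -0.02) had a limma adjusted p of 0.0524. It passed in A549 without control library 3 (-0.19, limma adjusted p = 0.00899) and in H460 without ISP-I library 2 (-0.36, limma adjusted p = 0.0394). The difference between the lines was -0.10 (95% interval -0.40 to 0.19, limma interaction adjusted p = 0.547), and median-of-ratios scaling turned its sign (0.18).

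INSR, the insulin receptor, was the lowest of the receptors and fell in both lines. Its H460 controls had 1.14, 0.942 and 1.43 FPKM (155 to 230 reads) and the ISP-I libraries 0.212, 0.299 and 0.280 FPKM (41 to 54 reads). The groups were far apart, with a mean 4.44-fold lower after ISP-I (log2 change -0.77, SE 0.09, limma adjusted p = 0.00012). In A549 the levels were 1.08, 1.03 and 0.832 FPKM in controls and 0.723, 0.518 and 0.721 FPKM with ISP-I, again without overlap. That 1.50-fold fall passed (log2 change -0.26, SE 0.08, limma adjusted p = 0.0262) but not without control library 1 (-0.22, limma adjusted p = 0.0841), control library 2 (-0.24, 0.0698) or ISP-I library 2 (-0.20, 0.0968). The fall was larger in H460, by -0.51 (SE 0.13, limma interaction adjusted p = 0.00439). IGF1R exceeded INSR by 7.63 ± 1.56 times in H460 controls and by 27.3 ± 5.94 times with ISP-I, and by 23.4 ± 2.82 and 31.4 ± 5.39 times in the A549 groups.

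IGF2R, the receptor that clears IGF2, was the most abundant receptor in H460 controls. Its levels there were 21.8, 22.7 and 22.1 FPKM, against 14.9, 16.5 and 11.8 FPKM with ISP-I. The controls all lay above the ISP-I libraries, and the mean was 1.54-fold lower with ISP-I (log2 change -0.61, SE 0.14, limma adjusted p = 0.004). Under median-of-ratios scaling the fall was -0.34 and no longer passed (limma adjusted p = 0.0577). In A549 the controls had 6.97, 6.81 and 6.26 FPKM and the ISP-I libraries 6.30, 5.32 and 5.37 FPKM, which overlapped and did not pass (-0.21, 95% interval -0.41 to -0.01, limma adjusted p = 0.0711). It did without control library 3 (-0.25, limma adjusted p = 0.017) and without ISP-I library 1 (-0.27, 0.043). The difference between the lines, -0.40, passed narrowly (limma interaction adjusted p = 0.0488). It passed in 1 of the 12 fits that leave out a library (-0.50, 0.0129, without H460 ISP-I library 2), was -0.27 without H460 ISP-I library 3 (0.0714) and -0.11 under median-of-ratios scaling (0.595). Of the IGF2R exon bases, 571 are shared with the pseudogene CHP1P2 on the same strand, which is 2.53% of them.

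IGFBP4, a binding protein that as a rule restrains IGF action until it is cleaved by the protease PAPPA, was the most abundant of the 10 genes in every group but H460 with ISP-I, and fell in both lines. In H460 controls it had 186, 219 and 209 FPKM, and with ISP-I 29.3, 23.6 and 29.6 FPKM. The lowest control was several times the highest ISP-I library, and the mean fell from 205 ± 16.8 to 27.5 ± 3.40 FPKM, 7.45-fold (log2 change -2.86, SE 0.14, limma adjusted p = 9.95e-07). The A549 controls had 818, 850.1 and 954 FPKM and the ISP-I libraries 412, 404 and 418 FPKM. These groups were also well apart, and the mean was 2.12-fold lower with ISP-I (log2 change -1.08, SE 0.09, limma adjusted p = 2.72e-05). The fall was larger in H460 than in A549 by -1.78 (SE 0.16, limma interaction adjusted p = 2.88e-06).

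IGFBP3, the main carrier of IGFs in serum, moved in opposite directions in the lines, as IRS1 did. Its H460 controls had 17.4, 18.6 and 16.8 FPKM and the ISP-I libraries 30.3, 28.1 and 25.7 FPKM. All ISP-I libraries were higher, and the mean rose 1.59-fold (log2 change 0.64, SE 0.11, limma adjusted p = 0.00103). In A549 it had 70.0, 76.5 and 84.8 FPKM in the controls and 53.3, 49.3 and 52.5 FPKM with ISP-I. The A549 groups did not overlap either, and the fall was 1.49-fold (log2 change -0.56, SE 0.08, limma adjusted p = 0.000624). The difference between the lines was 1.20 (SE 0.13, limma interaction adjusted p = 1.25e-05), and the direction in each line held under median-of-ratios scaling.

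IGFBP1, a short-lived binding protein that liver makes when insulin is low, was expressed in A549 alone. Its A549 levels were 11.9, 15.5 and 12.1 FPKM in the controls and 4.65, 4.93 and 4.42 FPKM with ISP-I. The ISP-I libraries lay below the controls without overlap, a 2.83-fold fall of the mean (log2 change -1.32, SE 0.11, limma adjusted p = 2.45e-05). H460 libraries held 0 to 2 reads in controls and 0 to 3 reads with ISP-I, at or under the 3 reads that a count of 0 allows, and no fold was computed. The interaction value of 1.35 (SE 0.14, limma adjusted p = 7.77e-06) thus rests on the A549 fall and is no measure of a response in H460. By limma voom on reads with library totals it was 2.04, with an adjusted p of 0.0794.

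IGFBP6, a binding protein that prefers IGF2, depended on 1 library. In H460 it had 67.4, 61.2 and 61.3 FPKM in the controls and 34.5, 28.7 and 63.2 FPKM with ISP-I. ISP-I library 3, the one that stood apart, sat among the controls, and the others were below them all. The change was -0.66 (SE 0.26, limma adjusted p = 0.0473) with it and -0.99 (limma adjusted p = 4.74e-05) without it. It failed when any of the other 5 H460 libraries was left out instead (-0.68 to -0.43, limma adjusted p 0.0878 to 0.148) and under median-of-ratios scaling (-0.38, limma adjusted p = 0.214). The A549 controls had 89.9, 77.3 and 113 FPKM and the ISP-I libraries 71.2, 67.8 and 78.5 FPKM, with overlap (-0.35, 95% interval -0.65 to -0.04, limma adjusted p = 0.0526). That change passed without control library 2 (-0.47, limma adjusted p = 0.0108) or control library 3 (-0.20, 0.0354). The lines differed by -0.31 (95% interval -1.02 to 0.39, limma interaction adjusted p = 0.433), or by -0.64 (0.0112) without H460 ISP-I library 3.

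IGFBP7, a matrix-associated member with low affinity for IGFs, was near the limit of detection in H460. Its H460 controls had 0.468, 0.341 and 0.348 FPKM (10 to 13 reads) and the ISP-I libraries 0.116, 0.187 and 0.140 FPKM (4 to 6 reads). The groups did not overlap, the mean was 2.62-fold lower with ISP-I, and the test passed (log2 change -0.27, SE 0.06, limma adjusted p = 0.00512), although not in a single fit of all 12 libraries (limma adjusted p = 0.14). A549 had 5.65, 5.04 and 7.79 FPKM in the controls and 3.54, 5.88 and 5.31 FPKM with ISP-I, which overlapped (-0.28, 95% interval -0.71 to 0.15, limma adjusted p = 0.226). The difference between the lines was 0.01 (95% interval -0.47 to 0.49, limma interaction adjusted p = 0.976). That value hangs on the pseudocount: with 0.1 it was -0.64, and by voom on reads -0.98 with library totals and -0.67 with median-of-ratios factors, none of which passed. The ratio of mean FPKM, control over ISP-I, was 1.25 in A549. Of its exon bases, 260 (13.5%) are shared with POLR2B and 94 (4.87%) with IGFBP7-AS1 on the opposite strand, and without a stated strand setting these reads cannot be told apart.

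**Figure D3:**
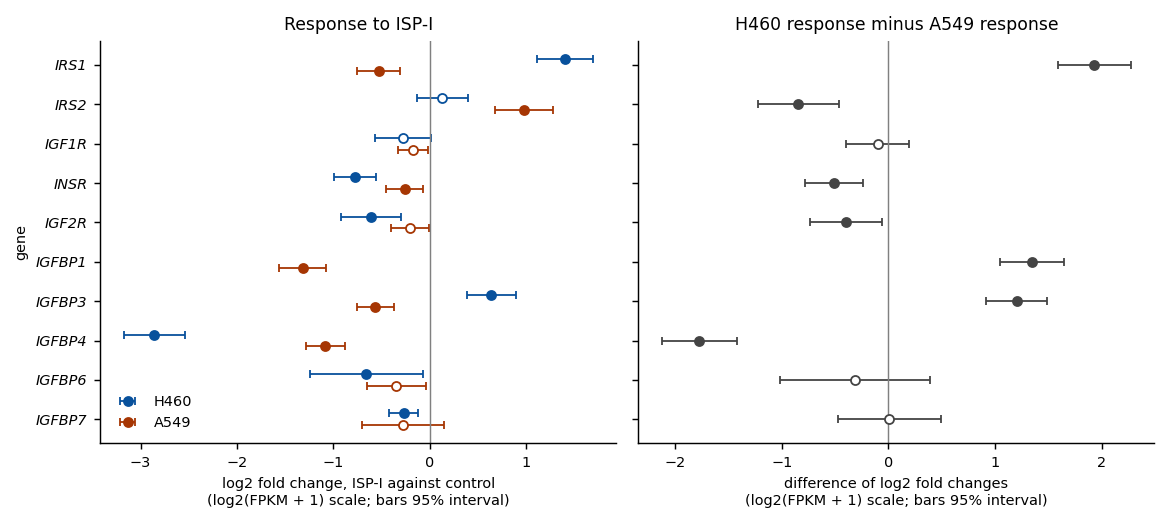
Log2 change of each gene with ISP-I in H460 and A549 (left) and the difference between the lines, H460 minus A549 (right), on log2(FPKM + 1), with points for the limma estimate, filled where it passed, and bars for the 95% interval. IRS1 and IGFBP3 lie above 0 in H460 and below 0 in A549, and the IGFBP4 point of H460 is the lowest, at -2.86. The IGFBP1 point on the right rests on A549 alone.

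Summed over the 7 genes from IGFBP1 to IGFBP7, binding protein transcripts were fewer with ISP-I in both lines. The sum was 287 ± 14.0 FPKM in H460 controls and 98.8 ± 19.4 FPKM with ISP-I, and 1072 ± 96.2 and 551 ± 14.2 FPKM in A549 (SD, n = 3 each). In H460 the share of IGFBP4 in this sum went from 71.2% ± 2.53 to 28.1% ± 3.05, that of IGFBP6 from 22.1% ± 2.31 to 41.4% ± 9.89 and that of IGFBP3 from 6.13% ± 0.284 to 29.3% ± 6.92. In A549 IGFBP4 kept the largest share, 81.6% ± 0.842 in controls and 74.7% ± 0.620 with ISP-I. H460 ISP-I library 3 had the highest share of IGFBP6, 52.8%. A share of a sum can rise without a rise of the gene itself, as IGFBP6 shows.

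**Figure D4:**
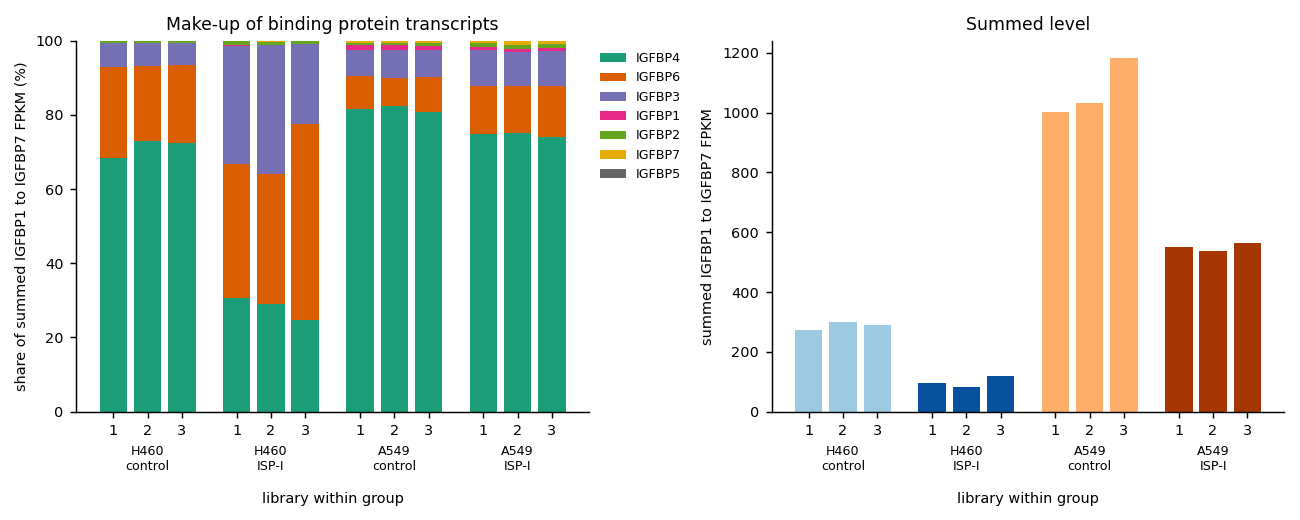
Make-up of the summed FPKM of IGFBP1 to IGFBP7 in each of the 12 libraries, in percent (left, stacked bars), and the sum itself in FPKM (right), both from 0. IGFBP4 made up 68.3% to 72.9% in H460 controls and 24.7% to 30.7% in H460 with ISP-I.

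The untreated lines differed in most of these genes. Among controls, and on the log2(FPKM + 1) scale, H460 minus A549 was -1.33 for IRS1, 1.91 for IRS2, -1.30 for IGF1R, 1.60 for IGF2R, -3.78 for IGFBP1, -2.07 for IGFBP3, -2.09 for IGFBP4 and -2.35 for IGFBP7, and each of these passed in the fit of 12 libraries. INSR (0.13, limma adjusted p = 0.243) and IGFBP6 (-0.54, 0.0628) did not. Over all genes, 57.5% passed in that contrast. H460 controls held 0 to 2 reads of IGFBP1, so its value rests on the A549 level and the pseudocount. It is no measured fold between the lines.

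The 4 groups were then ordered by mean level, and all pairs compared in the fit of 12 libraries. Over all genes, 50.7% passed between the A549 groups and 70.3% between the H460 groups in this fit, 71.0% between the ISP-I groups, 75.9% between H460 with ISP-I and A549 controls, and 69.5% between H460 controls and A549 with ISP-I. IRS1 was lowest in H460 controls, then A549 with ISP-I, A549 controls and H460 with ISP-I, of which the last pair did not differ beyond the spread. For IRS2 the order was A549 controls, A549 with ISP-I, H460 controls and H460 with ISP-I, the H460 pair not differing (limma adjusted p = 0.358). For IGF1R both H460 groups lay below both A549 groups, and for IGF2R above them, with the A549 groups not differing from each other in this fit (limma adjusted p = 0.154 and 0.142). INSR ran from H460 with ISP-I through A549 with ISP-I and A549 controls to H460 controls, of which the highest pair did not differ. For IGFBP3 and IGFBP4 both H460 groups lay below both A549 groups, and every pair of neighbours passed. For IGFBP6, H460 controls lay next to A549 with ISP-I without a difference beyond the spread (limma adjusted p = 0.475). The A549 groups of IGFBP6 did not differ in this fit either (limma adjusted p = 0.233). For IGFBP7 neither line's pair differed in this fit (limma adjusted p = 0.14 in H460 and 0.157 in A549). The H460 groups of IGFBP1, at 0 to 3 reads, were not ordered.

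Of the 9 genes that could be tested in both lines, 6 differed in response between H460 and A549 by the interaction test, against 53.3% of all genes, and 3 did so by more than 1 on the log2 scale, against 16.0%. IGFBP1 is left out of this count, since its response in H460 could not be measured. The values of IRS1 and IGFBP3 were positive (H460 minus A549; 18.6% of all genes) and those of IRS2, INSR, IGF2R and IGFBP4 negative (34.7%). Past 1 on the log2 scale were IRS1 and IGFBP3 on the positive side (5.93% of all genes) and IGFBP4 on the negative side (10.1%). For INSR, near or under 1 FPKM, this scale understates the difference between the lines. The ratio of mean FPKM, control over ISP-I, was 4.44 in H460 and 1.50 in A549. IRS1 and IGFBP3 are the genes of the 10 that passed in opposite directions in the lines. Median-of-ratios scaling raised the median difference of all genes by 0.18 and the positive share of those past 1 from 37.0% to 61.1%.

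The other genes of the pathway were taken from 8 lists by role, 121 genes in all. In H460, 107 could be tested and 80 passed (74.8%, against 69.2% of all genes), 41 higher and 39 lower (27.6% and 41.5% of all genes), with a median change of 0.08 against -0.15 for all genes. In A549, 71 of 111 passed (64.0%, against 57.5% of all genes), 38 higher and 33 lower (30.5% and 27.0% of all genes), with a median of -0.01 against 0.02. Past 2-fold were 13 higher and 23 lower in H460 (10.5% and 15.2% of all genes) and 10 higher and 5 lower in A549 (4.20% and 3.51% of all genes).

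**Figure D5:**
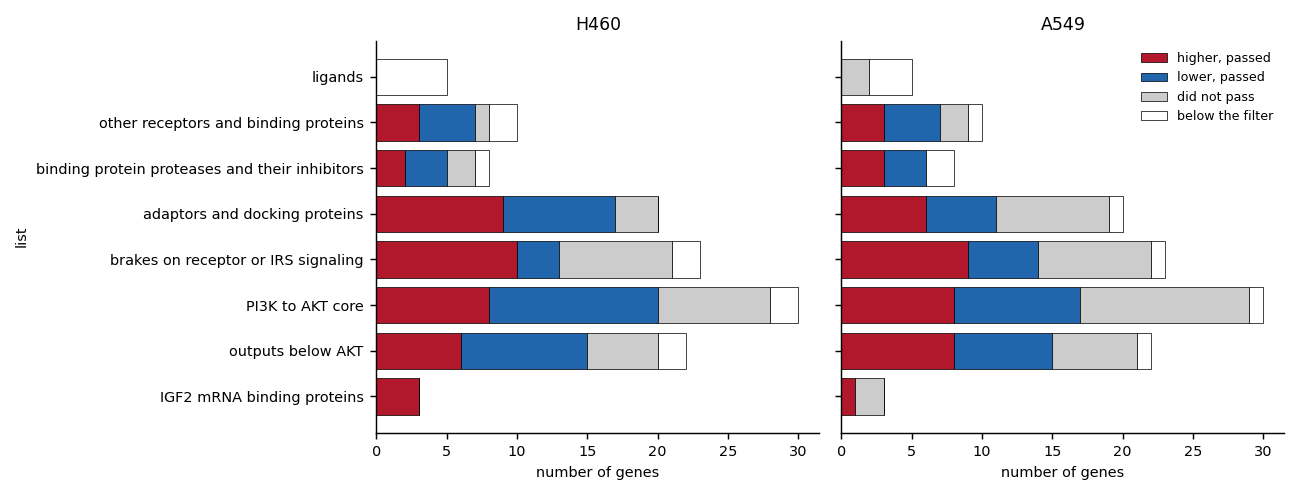
Number of genes in each of the 8 role lists that passed higher, passed lower, did not pass or were below the filter of 0.1 FPKM, as stacked bars from 0, for H460 (left) and A549 (right). In H460 the list labelled brakes on receptor or IRS signaling holds 10 higher and 3 lower genes, and the outputs below AKT 6 higher and 9 lower.

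Transcripts of the ligands were at or near 0. INS had 0 reads in each of the 12 libraries, which allows up to 3 reads a library, and IGF1 and IGF2 had 0 to 3 reads, at or under that floor. None of the ligand list passed; 2 of its 5 genes could be tested in A549 and 0 in H460.

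Of the other receptors and relatives of the binding proteins, 7 of 8 tested passed in H460 (3 higher, 4 lower) and 7 of 9 in A549 (3 higher, 4 lower), against 69.2% and 57.5% of all genes. CCN1, a matrix protein of the IGFBP-related family, rose in H460 (21.9 ± 1.85 to 50.4 ± 5.64 FPKM, log2 1.17) and in A549 (34.1 ± 2.88 to 74.4 ± 1.44 FPKM, log2 1.11). Its relative CCN2 rose in H460 (20.4 ± 0.295 to 42.6 ± 0.874 FPKM, log2 1.03) and CCN3 in A549 (0.365 ± 0.246 to 7.80 ± 0.454 FPKM, log2 2.70). Rises in the other line were smaller, 0.38 for CCN2 in A549 and 0.97 for CCN3 in H460 (0.731 to 2.41 FPKM). KAZALD1, a secreted protein with an IGF binding domain, fell from 16.7 ± 1.31 to 2.45 ± 0.240 FPKM in H460 (log2 -2.36), and IGFBPL1 fell there as well, from 4.10 ± 0.433 to 0.490 ± 0.179 FPKM (log2 -1.78). In A549 their log2 changes were -0.44 and -0.997.

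Proteases of the binding proteins and their inhibitors included the stanniocalcins, which inhibit PAPPA and PAPPA2. STC1 rose in H460 from 7.84 ± 1.48 to 104 ± 15 FPKM (log2 3.58) and in A549 by 0.52 on the log2 scale, and STC2 rose in H460 (46.5 ± 2.34 to 151 ± 14.0 FPKM, log2 1.67) and in A549 (17.2 ± 0.725 to 49.7 ± 2.13 FPKM, log2 1.48). PAPPA2, a protease of IGFBP3 and IGFBP5, fell in H460 from 12.6 ± 0.566 to 3.23 ± 0.534 FPKM (log2 -1.69), and the serine protease PRSS23 fell from 10.8 ± 0.724 to 2.70 ± 0.327 FPKM (log2 -1.68). In A549 the log2 change of PRSS23 was -0.94, and PAPPA2 had 0 reads in each library. PAPPA, the protease of IGFBP4, had a log2 change of 0.08 in H460 (limma adjusted p = 0.631) and -0.40 in A549 (0.00983). It is outside the naming rule and was added after its values were seen, because it cleaves IGFBP4. In this list 5 of 7 passed in H460 and 6 of 6 in A549, against 69.2% and 57.5% of all genes. Its name is a label, and whether PRSS23 acts on the binding proteins was not tested.

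Among the adaptors and docking proteins, 17 of 20 passed in H460 (9 higher, 8 lower) and 11 of 19 in A549 (6 higher, 5 lower), against 69.2% and 57.5% of all genes. DOK4, a docking protein of the IRS-like DOK family, fell in H460 (6.65 ± 0.361 to 0.380 ± 0.0892 FPKM, log2 -2.47) and in A549 (11.2 ± 1.75 to 4.20 ± 0.322 FPKM, log2 -1.23). DOK1 fell in H460 from 6.55 ± 0.733 to 1.58 ± 0.188 FPKM (log2 -1.55), and in A549 by a log2 change of -0.36. No gene of this list was called higher past 2-fold in either line on the log2(FPKM + 1) scale. That scale understates rises from under 1 FPKM. SHC2 passed higher in A549 (0.144 to 1.19 FPKM, log2 0.94) and in H460 (0.0374 to 0.810 FPKM, log2 0.80, with 0 to 5 reads in the controls). GAB2 passed higher in H460 (0.741 to 1.94 FPKM, log2 0.76). SHC2 and GAB2 are outside the naming rule and were added after their values were seen.

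Of the list labelled brakes on receptor or IRS signaling, 13 of 21 passed in H460 and 14 of 22 in A549, against 69.2% and 57.5% of all genes. Higher were 10 in H460 and 9 in A549, where 27.6% and 30.5% of all genes tested passed higher. Lower were 3 in H460 and 5 in A549, where 41.5% and 27.0% of all genes tested passed lower. NEDD4, a ubiquitin ligase that acts on IGF1R, rose in H460 (4.58 ± 1.22 to 26.9 ± 12.5 FPKM, log2 2.25) and in A549 (17.4 ± 6.26 to 43.7 ± 3.43 FPKM, log2 1.35). The deacetylase SIRT1 rose in H460 (6.30 ± 0.561 to 44.8 ± 11.2 FPKM, log2 2.62) and in A549 (log2 1.05). The ubiquitin ligase MDM2 rose in A549 (6.09 ± 0.967 to 21.1 ± 0.726 FPKM, log2 1.65) and did not pass in H460 (-0.09, limma adjusted p = 0.528, or 0.14 under median-of-ratios scaling). TRIB3, a pseudokinase that binds AKT, fell in H460 from 34.1 ± 2.26 to 16.0 ± 3.02 FPKM (log2 -1.06) and rose in A549 from 28.8 ± 2.78 to 68.2 ± 0.226 FPKM (log2 1.22). SIRT1 and MDM2 have many substrates besides this pathway. The name of the list is a label, and some of its genes, such as SIRT1 and FURIN, have other or mixed roles. Whether its genes restrain signaling in these cells was not tested.

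In the PI3K to AKT core, 20 of 28 passed in H460 (8 higher, 12 lower) and 17 of 29 in A549 (8 higher, 9 lower), against 69.2% and 57.5% of all genes. RICTOR, a subunit of mTORC2, rose in H460 from 1.57 ± 0.306 to 4.93 ± 2.33 FPKM (log2 1.14), and AKT1S1, a subunit and inhibitor of mTORC1, from 20.8 ± 1.05 to 43.1 ± 7.21 FPKM (log2 1.003). In A549 RICTOR had a log2 change of 0.59 and AKT1S1 one of -0.11, which did not pass (limma adjusted p = 0.173). INPPL1, a lipid phosphatase of the pathway, fell in H460 from 23.9 ± 2.52 to 7.69 ± 0.403 FPKM (log2 -1.51, and -0.53 in A549). AKT1 fell in both lines (log2 -2.16 in H460 and -1.01 in A549).

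Among outputs below AKT, 15 of 20 passed in H460 (6 higher, 9 lower) and 15 of 21 in A549 (8 higher, 7 lower), against 69.2% and 57.5% of all genes. FOXO3 rose in both lines (log2 2.98 in H460 and 1.21 in A549) as did FOXO1 (1.21 and 0.36), while EIF4EBP1, a translation repressor, fell in both (-2.34 and -1.22). GYS1, muscle-type glycogen synthase, fell in H460 from 28.8 ± 3.30 to 4.22 ± 0.108 FPKM (log2 -2.51), and in A549 by a log2 change of -0.89. HK2, a hexokinase that insulin induces in muscle, rose in A549 from 0.692 ± 0.0563 to 6.41 ± 0.113 FPKM (log2 2.13). In H460 it went from 20.2 ± 0.745 to 16.0 ± 1.16 FPKM (log2 -0.32, limma adjusted p = 0.0271), which did not pass under median-of-ratios scaling (-0.05) or without any 1 of the 3 control libraries (-0.34 to -0.29, limma adjusted p 0.0575 to 0.0944). PCK2, a mitochondrial enzyme of gluconeogenesis, fell in both lines, from 8.12 ± 1.38 to 2.55 ± 0.0321 FPKM in A549 (log2 -1.35) and from 7.69 ± 1.13 to 1.69 ± 0.452 FPKM in H460 (log2 -1.70). Of the IGF2 mRNA binding proteins, 3 of 3 passed higher in H460, where 27.6% of all genes did, and 1 of 3 in A549, where 30.5% did. IGF2BP2 was the one past 2-fold in H460 (4.18 ± 0.845 to 10.6 ± 1.62 FPKM, log2 1.17), and its log2 change in A549 was 0.27. That A549 change failed when control library 1 (0.25, limma adjusted p = 0.0645), the ISP-I library numbered 1 (0.23, 0.0869) or the one numbered 3 (0.26, 0.0714) was left out. For the rises and falls named by rule, the limma adjusted p lay between 5.12e-07 (HK2) and 0.00404 (RICTOR); the changes of these genes in the other line were added after their values were seen, and passed at up to 0.0271 (HK2) except where said.

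Some other genes had a pattern near that of a docking protein or receptor over the 12 libraries on the log2(FPKM + 1) scale. Likeness was the root mean square difference of log2(FPKM + 1), after each gene was centred on its mean, over genes whose mean reached 1 FPKM. Nearest to IRS1 were TNKS1BP1 (0.18), a tankyrase-binding protein, the transcription factor TFAP2C (0.20) and the lipid scramblase ANO6 (0.20). Nearest to IRS2 were the inflammatory caspase CASP4 (0.17), MARS2 (0.24), a mitochondrial methionyl-tRNA synthetase, and RGS2 (0.25), a regulator of G protein signaling. For IGF1R they were the TGF-beta coreceptor TGFBR3 (0.10), RHBDF2 (0.10) and FERMT1 (0.12). The pseudocount of 1 flattens genes near or under 1 FPKM, such as TGFBR3 in H460 and INSR, so a likeness does not mean equal fold changes. In H460, TGFBR3 went from a mean of 0.342 to 0.0966 FPKM with ISP-I, and IGF1R from 8.70 to 7.04 FPKM. Nearest to INSR were PPP2R5A (0.10), a regulatory subunit of protein phosphatase, RBM4B (0.10) and the kinesin light chain KLC1 (0.10). The 12 libraries share lines and treatments, so a likeness is a description of levels.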

How the data were processed

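Total RNA of non-treated and ISP-I-treated H460 and A549 cells was extracted with TRIzol and an RNeasy kit, made into TruSeq libraries and sequenced as paired reads of 150 bp. Per the labels' processing notes, FastQC, HISAT2 and HTSeq 0.9.1 were used on hg38; annotation version and strand setting are not given in the sources used here. The values are FPKM deposited by the authors, scaled by gene length and library total, with no other normalization between libraries. Multiplied by length, 100% of values came out as whole numbers of reads (within 0.05), and these reads were recovered. Column names gave line and treatment only, and 4 lines that named no gene were left out.

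Each line's 6 libraries were compared with limma 3.58.1 (R 4.3.3) with a mean-variance trend on log2(FPKM + 1), over genes whose mean reached 0.1 FPKM, with Benjamini-Hochberg adjustment over all of them. The interaction of line and treatment, and 6 contrasts of the 4 groups, were fitted on all 12 libraries. The procedure was run on simulated data in which few genes changed, with as many rises as falls. Far more genes passed in the real libraries, so that run does not measure the error of the test here. Tables were read with Python 3.11.15 and pandas 2.3.3, exon overlaps came from GENCODE version 44, and figures from matplotlib 3.10.9. Each of the 10 genes was named in every comparison. In each role list the 2 genes with the largest rise and the 2 with the largest fall among those called past 2-fold were named in each line, and for IRS1, IRS2, IGF1R and INSR the 3 genes nearest in likeness. The genes and lists were chosen with earlier results of these data known. Alternatives were no filter, a filter at a mean of 1 FPKM, a pseudocount of 0.1, median-of-ratios scaling, limma voom on recovered reads (10 reads or more in 3 libraries) with library totals or median-of-ratios factors, a single fit of all 12 libraries, and leaving out each library.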

Additional observations from a re-analysis of the deposited data

Results flagged for a closer look

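For 6 of the 9 genes measured in both lines, the response to ISP-I differed between H460 and A549 by the interaction test on all 12 libraries (log2 change in H460 minus that in A549, limma). The differences were 1.93 for IRS1, -0.85 for IRS2, -0.51 for INSR, -0.40 for IGF2R, 1.20 for IGFBP3 and -1.78 for IGFBP4. IRS1 and IGFBP3 passed with opposite signs in the lines (1.40 against -0.53, and 0.64 against -0.56). IRS2 passed in A549 (0.98) and not in H460 (0.13), whereas INSR (-0.77 and -0.26) and IGFBP4 (-2.86 and -1.08) fell in both. The pseudocount of 1 understates the INSR values: its mean FPKM was 4.44-fold lower with ISP-I in H460 and 1.50-fold lower in A549. IGFBP1 had 0 to 3 reads in H460 libraries, so its value of 1.35 rests on the A549 fall of -1.32 and is no measured difference of response. The IGF2R difference passed in 1 of the 12 fits that leave out a library. Of the other pathway genes named, TRIB3 and HK2 are given because they passed with opposite signs in the lines. TRIB3 (-1.06 in H460 and 1.22 in A549) differed by -2.28 (limma interaction adjusted p = 7.03e-07). HK2 (-0.32 and 2.13) differed by -2.45 (limma interaction adjusted p = 1.15e-08). Its H460 fall did not pass under median-of-ratios scaling (-0.05) or without any 1 of the 3 control libraries. Some named genes that moved in the same direction in both lines also differed by more than 1, such as STC1 (3.06), KAZALD1 (-1.92) and FOXO3 (1.77).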

How the results depend on the processing

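Of 423 values of the 10 genes under the alternatives, 362 kept direction and side of the threshold, 32 no longer passed, 19 newly passed and 10 changed sign. Of 724 values of the other named pathway genes, SHC2 and GAB2 left out, 710 kept theirs and 11 no longer passed (RICTOR and IGF2BP2 in A549, HK2 in H460). Another 3, of changes that had not passed, turned sign: MDM2 in H460 to 0.14 under median-of-ratios scaling and 0.17 by voom with these factors, and PAPPA in H460. Genes called past 2-fold numbered 3456 in H460, 1056 in A549 and 2234 for the difference between lines, but 5786, 2398 and 4239 with a pseudocount of 0.1, 6026, 2590 and 4381 by voom with library totals, and 5825, 2593 and 4023 by voom with median-of-ratios factors.

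Under median-of-ratios scaling, and then by voom with these factors, the log2 changes were, in H460, 0.41 and 0.42 for IRS2 (newly passed) and -0.38 and -0.40 for IGFBP6 (no longer passed); in A549, -0.20 and -0.21 for IGF1R and -0.23 and -0.27 for IGF2R (newly passed). IGF2R in H460 was lost by scaling (-0.34) and IGFBP7 in H460 by voom with factors (-1.03). Between the lines IGF1R turned to 0.18 and 0.19, and IGF2R was lost at -0.11 and -0.083. Voom with library totals gave -0.18 (IGF1R), -0.24 (IGF2R) and -0.35 (IGFBP6) in A549, newly passed, as was IGFBP6 by voom with factors (-0.38); between lines it lost IGF2R (-0.40) and IGFBP1 (2.04). The IGFBP7 difference between lines turned to -0.64 with a pseudocount of 0.1 and to -0.98 and -0.67 by voom. IGF2R between lines was also lost with a pseudocount of 0.1 (-0.40) and with no filter (-0.40). Without a filter, IGFBP6 in H460 (-0.66) and INSR in A549 (-0.26) were lost and IGF1R in A549 passed (-0.17). In the single fit IGF1R in H460 passed (-0.27) and IGFBP7 in H460 did not (-0.27). At a mean of at least 1 FPKM, INSR, and IGFBP7 in H460, could not be fitted. The causes were not tested.

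With each library left out in turn, the values were -0.36 to -0.18 for IGF1R, -0.99 to -0.43 for IGFBP6 and -0.017 to 0.19 for PAPPA in H460. In A549 they were -0.21 to -0.15 for IGF1R, -0.32 to -0.20 for INSR, -0.27 to -0.17 for IGF2R and -0.47 to -0.20 for IGFBP6. Between the lines the ranges were -0.50 to -0.27 for IGF2R, -0.64 to -0.085 for IGFBP6 and -0.17 to 0.13 for IGFBP7. No paired analysis was possible because the columns carry no replicate number that could be tied to the labels. Depth limits IGFBP1 and IGFBP7 in H460, at 0 to 3 and 4 to 13 reads a library. The floors cover counting error only, and the intervals the spread between libraries.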
